A study of Mus musculus with 4 samples.

Results

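The cytosolic ribosomal protein genes are the genes for the proteins of the ribosome outside mitochondria. They were taken as the protein-coding genes whose symbol is Rpl or Rps followed by a digit, without the S6 kinase genes, together with Rpsa, Rplp0, Rplp1 and Rplp2. The rule found 92 of the 53379 genes in the count table, of which 57 have a large-subunit symbol and 35 a small-subunit symbol. The standard ribosomal proteins account for 77 of them (46 large, 31 small), and the other 15 are paralogues, coding gene copies and 1 gene that shares only the symbol, Rps19bp1, which encodes a nucleolar regulator of Sirt1.

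RNA-seq was done on cultured cortical astrocytes of newborn C57BL/6 mice with 2 genotypes, Npas3-/- and WT, and 2 samples of each. NPAS3 is a transcription factor of the bHLH-PAS family that acts in neural cells. Cortices were taken at postnatal day 0, loosely attached cells were removed by daily shaking for 7 days, and RNA was taken at day 14 in vitro. The labels do not give the allele, the sex or the number of animals per culture, nor whether the 2 samples of a genotype are separate cultures, so p-values reflect no more than how far these 4 samples scatter, and that scatter may be technical.

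The 4 libraries held 82965565 to 86932708 counts each, and 18838 genes passed the filter on low counts. Npas3 itself had 24.8 and 18.0 CPM in Npas3-/- cultures, against 57.7 and 93.3 CPM in WT cultures, a log2 fold change of -1.82 ± 0.33 (SE) with an edgeR adjusted p of 0.0181, so that the transcript was lower but still counted in the cultures labelled Npas3-/-. Of 10 astrocyte markers, 3 were higher and 3 lower, with 6920 and 7124 summed CPM in Npas3-/- cultures and 3898 and 4942 CPM in WT cultures. Gfap, the astrocyte filament gene, had 1870.1 and 1899 CPM in Npas3-/- cultures, against 613 and 655 CPM in WT cultures, and Aqp4, the water channel, had 22.1 and 16.5 CPM in Npas3-/- cultures, against 139 and 482 CPM in WT cultures. Microglial markers summed to 9.59 to 11.5 CPM in every library. Neuronal markers summed to 202 and 201 CPM in Npas3-/- cultures against 312 and 170.4 CPM in WT cultures, and oligodendrocyte-lineage markers to 1804 and 2198 CPM in Npas3-/- cultures against 1644 and 1502 CPM in WT cultures. Vascular and fibroblast markers summed to 294 and 345 CPM in Npas3-/- cultures against 390.1 and 319 CPM in WT cultures. Among the single genes edgeR called 3 of 8 tested neuronal markers lower (median log2 fold change -1.39) and 3 of 8 vascular and fibroblast markers lower (median -0.25), and the other 5 of each list were not called. Over all tested genes 11.6% were higher and 21.5% lower. With the offset for GC content and length described further on, 1 of 8 was lower in each list (medians -0.50 and -0.36). Of the astrocyte markers 3 were then higher and 2 lower, beside 5.71% and 3.08% of all tested genes. Mog, a marker of mature oligodendrocytes, was at 0 counts in all 4 libraries. The part of these cell mixtures in the results below was not tested.

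A cytosolic ribosome joins a small subunit, which reads the mRNA, to a large subunit, which forms peptide bonds and lets the nascent chain out through a tunnel. Its proteins are made in near-equal numbers, and their mRNAs share a start of pyrimidines, the 5' terminal oligopyrimidine (TOP) tract, through which mTORC1 controls their translation. The mRNAs are short and among the most abundant of any cell, and their genes have left many processed pseudogenes in the mouse genome.

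Ribosomal protein transcripts were more abundant in Npas3-/- than in WT cultures, in both subunits. They made up 3.65% and 4.55% of all counts in Npas3-/- cultures, against 2.69% and 1.95% in WT cultures. The 95% Wilson interval of each share is within 0.00441 percentage points of it, which covers counting error only. The median level of the 87 tested members was 384 and 535 CPM (counts scaled to library size) in Npas3-/- cultures and 251 and 183 CPM in WT cultures. Both Npas3-/- libraries therefore stood above both WT libraries, and the samples of one genotype also differed from each other. In the second Npas3-/- library 75 of 87 members were above the first, by a median of 0.32 on the log2 scale. In the first WT library 80 of 87 were above the second, by a median of 0.48. In bulk RNA, a different number of cells of a type and a different amount of RNA per cell cannot be told apart.

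With edgeR's quasi-likelihood test, p-values being adjusted by Benjamini and Hochberg's method over all tested genes, 47 of the 87 tested members were higher in Npas3-/- cultures and 3 were lower at an adjusted p below 0.05. Over all genes tested, 11.6% were higher and 21.5% lower. The members' median log2 fold change was 1.03, about a 2.05-fold higher level, beside -0.07 over all tested genes. Adjusted p-values of the 47 lay between 0.0130 and 0.0490. Counting libraries instead of testing, 67 of 87 members had both Npas3-/- values above both WT values, which 35.7% of all tested genes also had, and 4 had both below, against 40.1% of all. The remaining 16 overlapped. When libraries were scaled by total counts alone, 28 members were higher and 4 lower with a median log2 fold change of 0.81, while the median of all genes moved to -0.30 and all calls split into 1009 higher and 4448 lower in place of 2188 and 4044.

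**Figure D1:**
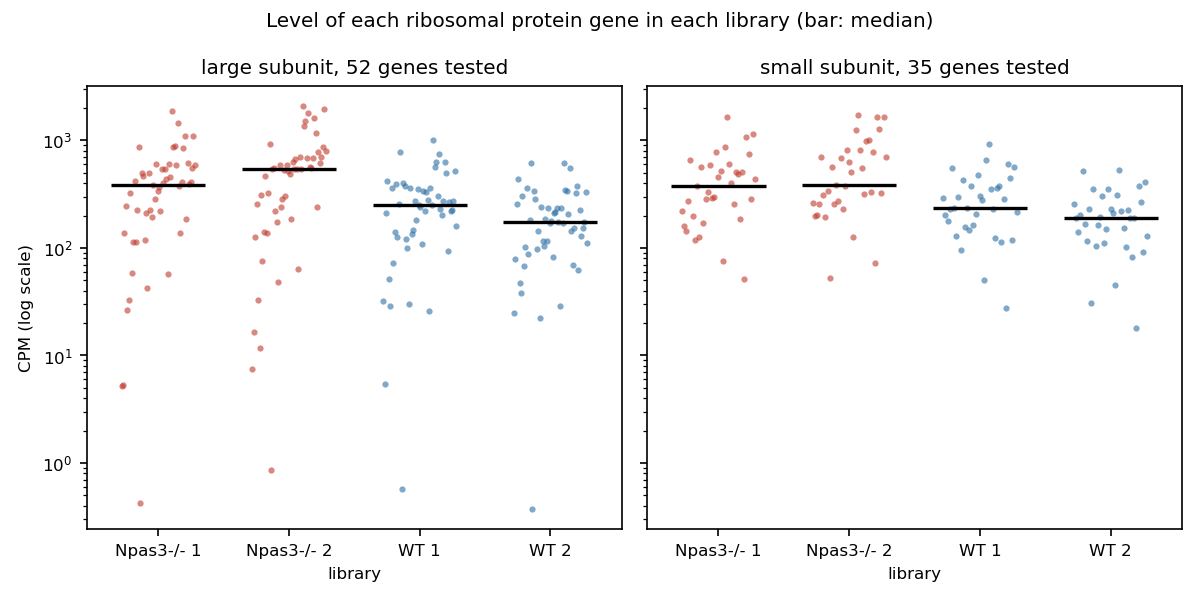
Level of each tested ribosomal protein gene in each library, in CPM on a log axis, for the large subunit (left) and the small subunit (right). Each point is 1 gene and the black bar is the median, and in both panels the bars of the 2 Npas3-/- libraries lie above those of the 2 WT libraries.

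Both subunits had more genes higher than lower, whereas over all tested genes 11.6% were higher and 21.5% lower. Of 52 tested large-subunit genes 27 were higher and 3 lower, with a median log2 fold change of 1.04. Of 35 small-subunit genes 20 were higher and 0 lower, with a median of 1.01. No small-subunit gene was lower by DESeq2 or limma-voom, nor at an unadjusted p below 0.05 in edgeR. The ratio of summed large-subunit to summed small-subunit CPM was 1.42 and 1.44 in Npas3-/- cultures and 1.40 and 1.42 in WT cultures, so the ranges of the genotypes overlapped. Both Npas3-/- libraries were above both WT libraries for 38 of 52 large-subunit and 29 of 35 small-subunit genes, beside 35.7% of all tested genes. They were below both for 4 large-subunit and 0 small-subunit genes, beside 40.1% of all tested genes.

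**Figure D2:**
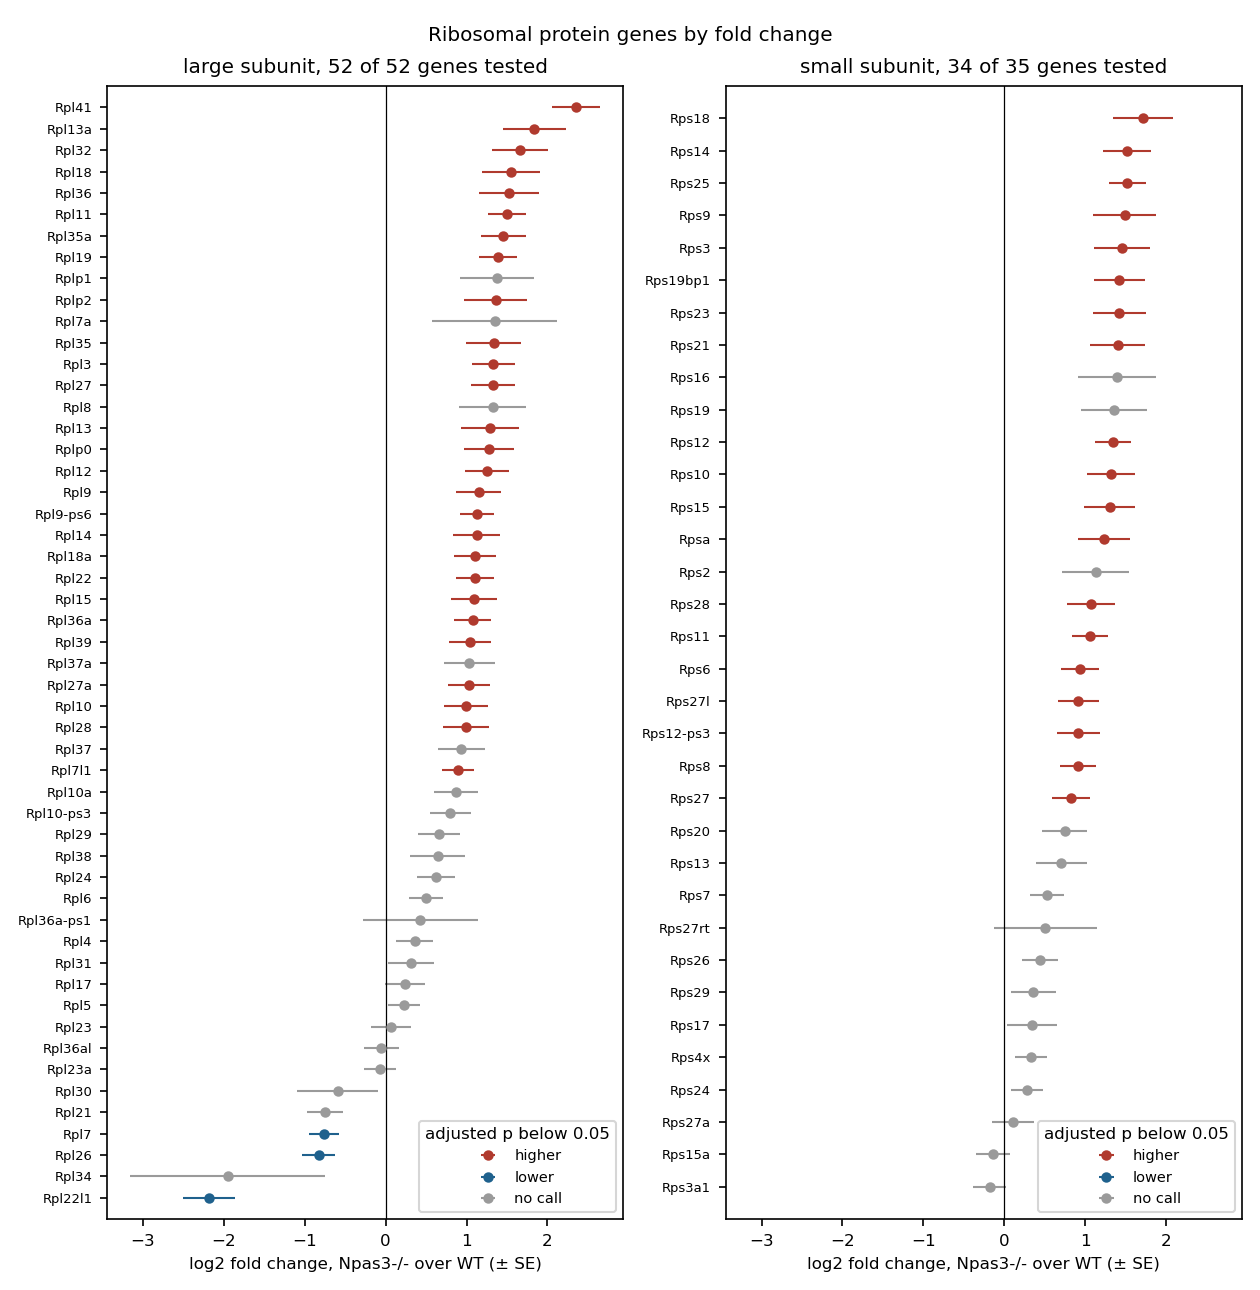
Log2 fold change of Npas3-/- over WT with its SE for the 52 tested genes of the large subunit (left) and 34 of the 35 of the small subunit (right), from 2 libraries per genotype. Red points were higher and blue points lower at an edgeR adjusted p below 0.05, and grey points had no call; the 3 blue points, Rpl7, Rpl26 and Rpl22l1, are all in the large-subunit panel.

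In the large subunit the steepest rise was that of Rpl41, a very short basic protein at the interface between the subunits. Rpl41 had 586 and 804 CPM in Npas3-/- cultures, against 159 and 112 CPM in WT cultures. Every Npas3-/- value was more than any WT value, and the log2 fold change was 2.36 ± 0.29 (SE) with an edgeR adjusted p of 0.013. Rpl13a, which in human cells also takes part in the translational silencing of inflammatory mRNAs outside the ribosome, had 1109 and 1946 CPM in Npas3-/- cultures, against 523 and 329.9 CPM in WT cultures, with no overlap and a log2 fold change of 1.84 ± 0.38 (SE), edgeR adjusted p = 0.0244. Rpl32 followed at 1.66 (edgeR adjusted p = 0.0242) and Rpl18 at 1.55 (edgeR adjusted p = 0.0294).

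The large-subunit proteins with the highest level per length of transcript were Rplp1, Rpl19, Rplp0, Rpl13 and Rpl8. Rplp0, Rplp1 and Rplp2 form the stalk that recruits elongation factors. Rplp1 had 1688 and 3267 CPM per kb in Npas3-/- cultures, against 1256 and 648 CPM per kb in WT cultures. The Npas3-/- values were both above the WT values, and the log2 fold change of 1.38 ± 0.46 (SE) was not called (edgeR adjusted p = 0.0661). Rplp0 had a log2 fold change of 1.28 ± 0.31 (SE) and Rplp2 of 1.36 ± 0.39 (SE), with edgeR adjusted p-values of 0.0322 and 0.0472. The 3 stalk genes together took 8.15% and 8.68% of the members' summed CPM in Npas3-/- cultures, against 7.64% and 6.10% in WT cultures. Rpl19 rose by 1.38 (edgeR adjusted p = 0.0169) and Rpl13 by 1.29 (0.044 by the same test) on the log2 scale, whereas Rpl8, with 1.32, was not called (edgeR adjusted p = 0.0571).

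Genes for proteins that sit together were in places called differently, and the differences between such genes were not tested. Rpl5 and Rpl11 enter the ribosome together with 5S rRNA and, when free, bind the p53 regulator Mdm2. Rpl11 had 623 and 786 CPM in Npas3-/- cultures, against 270.3 and 226 CPM in WT cultures, and the groups did not overlap (log2 fold change 1.50 ± 0.23 SE, edgeR adjusted p = 0.0151). Rpl5 had 419 and 467 CPM in Npas3-/- cultures, against 395 and 363 CPM in WT cultures. Its values did not overlap either, but they lay close together, and the log2 fold change was 0.23 ± 0.20 (SE) with an edgeR adjusted p of 0.409. With the GC and length offset described further on, Rpl5 stood at 1.72 (edgeR adjusted p = 0.0282) and Rpl11 at 0.85 (edgeR adjusted p = 0.0339), so that both were called higher and their order was the reverse. A value in brackets after a gene is its log2 fold change. Of the proteins that line or end the peptide tunnel, Rpl39 was higher (1.04, edgeR adjusted p = 0.0355), whereas Rpl4 (0.36) and Rpl17 (0.24) were not called. At the tunnel rim, Rpl19 and Rpl35 (1.33, edgeR adjusted p = 0.0366) were higher, Rpl23a (-0.07) and Rpl31 (0.32) were not called, and Rpl26 was lower. With the offset Rpl19 (0.58), Rpl35 (0.40), Rpl23a (-0.22) and Rpl31 (0.98) were not called, and Rpl26 (-1.77) was still lower. Rpl39 (1.03) was then still higher, and Rpl4 (0.60) and Rpl17 (0.83) were not called.

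Rpl26, which in human cells also binds the mRNA of p53, had 136 and 127 CPM in Npas3-/- cultures, against 212 and 256 CPM in WT cultures. Both Npas3-/- values were below both WT values, with a log2 fold change of -0.83 ± 0.20 (SE) and an edgeR adjusted p of 0.0333. Rpl7, a further large-subunit protein, had 246 and 257 CPM in Npas3-/- cultures, against 417 and 435 CPM in WT cultures, again without overlap (log2 fold change -0.76 ± 0.19 SE, edgeR adjusted p = 0.0349). These were the standard ribosomal protein genes called lower.

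In the small subunit Rps18, a protein of the head, rose most. Rps18 had 433 and 705 CPM in Npas3-/- cultures, against 216 and 129 CPM in WT cultures, with both Npas3-/- values above both WT values and a log2 fold change of 1.72 ± 0.37 (SE) (edgeR adjusted p = 0.0257). Rps25, which some viral internal ribosome entry sites need, had 286 and 322 CPM in Npas3-/- cultures, against 119 and 92.1 CPM in WT cultures, likewise without overlap (log2 fold change 1.52 ± 0.22 SE, edgeR adjusted p = 0.014). Rps14 rose by 1.52 and Rps9 by 1.49 on the log2 scale, with edgeR adjusted p-values of 0.0213 and 0.0379.

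Rps14, Rps15, Rps9, Rps2 and Rpsa had the highest small-subunit levels per length. Rps14 had 1922 and 2759 CPM per kb in Npas3-/- cultures, against 946 and 682 CPM per kb in WT cultures. Rps15, whose tail reaches the decoding site, had 1213 and 1645 CPM per kb in Npas3-/- cultures, against 713 and 444 CPM per kb in WT cultures. In both genes the Npas3-/- values exceeded the WT values, and Rps15 had a log2 fold change of 1.30 ± 0.31 (SE) with an edgeR adjusted p of 0.0325. Of the 3 proteins around the mRNA entry channel, Rps3 (1.46, edgeR adjusted p = 0.0314) and Rps9 were higher, and Rps2, at 1.13 ± 0.42 (SE), was not called (edgeR adjusted p = 0.0852). Rps23, a protein of the decoding centre, rose by 1.43 (edgeR adjusted p = 0.0291), Rps6, the S6 kinase substrate, by 0.94 (0.0353 by the same test), and Rpsa, also known as the laminin receptor, by 1.23 (0.0385 by the same test).

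At the other end of the small subunit stood Rps3a1, Rps15a, Rps27a and Rps24. Rps3a1 had 221 and 260.4 CPM in Npas3-/- cultures, against 289 and 256 CPM in WT cultures, and Rps15a had 159.8 and 197 CPM in Npas3-/- cultures, against 202 and 191 CPM in WT cultures. The genotypes overlapped in both, with log2 fold changes of -0.18 ± 0.20 (SE) and -0.14 ± 0.20 (SE). Rps27a, which is made as a fusion with ubiquitin, had a log2 fold change of 0.11 ± 0.26 (SE), and Rps24 of 0.28 ± 0.19 (SE). None of the 4 was called by edgeR, with adjusted p-values of 0.518, 0.626, 0.76 and 0.302, but with the offset for GC content and length Rps15a (1.45) and Rps24 (1.05) were called higher (edgeR adjusted p = 0.0352 and 0.0292). Among the 4 X-linked members, Rpl10 (0.99), Rpl36a (1.08) and Rpl39 were higher, and Rps4x, with 655 and 703 CPM in Npas3-/- cultures, against 556 and 523 CPM in WT cultures, was not called (log2 fold change 0.33 ± 0.20 SE, edgeR adjusted p = 0.238).

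The fold change of a gene in these libraries moved with the GC content of its transcript, and this touches the members too. Over all tested genes Spearman's rho between the log2 fold change and GC content was 0.67, and over the 87 members it was 0.42; genes share their libraries, so this is a description. The members had a median GC content of 50.9% and a median transcript length of 887 bases, against 50.2% and 2749 bases over all tested genes. A smooth trend of level on GC content and length, fitted in each library, differed between genotypes by a median of 0.34 on the log2 scale for the members and of -0.15 over all genes. With that trend as an offset, 26 members were higher and 1 was lower, with a median log2 fold change of 0.65, where 5.71% of all genes were higher and 3.08% lower and the median of all genes was 0.09. Large-subunit genes then had 19 higher and 1 lower (median 0.68) and small-subunit genes 7 higher and 0 lower (median 0.60). Where a real difference runs along GC content or length, the offset takes it out too.

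With and without the offset, 19 members were higher in both fits, 28 only without it and 7 only with it, and none was called in opposite directions. The same split over all tested genes is not given here, so these counts describe the members only. The 19 were Rpl3, Rpl7l1, Rpl9, Rpl9-ps6, Rpl10, Rpl11, Rpl13a, Rpl15, Rpl22, Rpl27a, Rpl32, Rpl35a, Rpl36a, Rpl39, Rpl41, Rps3, Rps23, Rps25 and Rps27l, named after their values were seen. Among the 28 that were not called with it are Rplp0, Rpl13, Rpl35, Rplp2, Rpl19, Rpl18, Rps27, Rps12-ps3, Rps6, Rpsa, Rps15, Rps10, Rps12, Rps19bp1, Rps9, Rps14 and Rps18. The 7 called higher with it alone were Rpl5, Rpl10-ps3, Rpl37, Rpl37a, Rps15a, Rps24 and Rps20. Rpl41 kept a log2 fold change of 1.44 (edgeR adjusted p = 0.0246), and Rps25 of 1.19 (edgeR adjusted p = 0.0255). Rpl26 was lower in both fits and stood at -1.77 with the offset (edgeR adjusted p = 0.0318), whereas Rpl7 was then at -0.02 (edgeR adjusted p = 0.955). Rps15a, with 45.4% GC and a longest coding transcript of 5179 bases, stood at 1.45 with the offset (edgeR adjusted p = 0.0352). The sign was opposite to that without the offset. Over the members rho with GC content was -0.55 after the offset, against 0.03 over all genes, so members of low GC content then had the larger fold changes. With transcript length rho was then 0.30 over the members and 0.52 over the small subunit, against -0.05 over all genes. Npas3 itself had a log2 fold change of -0.57 with the offset (edgeR adjusted p = 0.154).

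**Figure D3:**
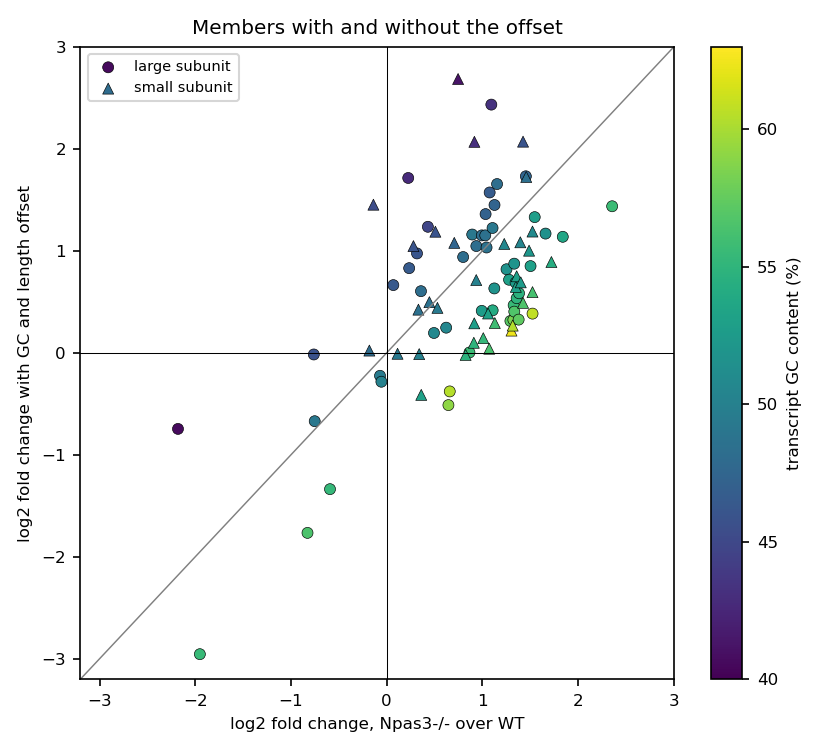
Log2 fold change of Npas3-/- over WT for each tested member without (horizontal axis) and with (vertical axis) the GC and length offset, with colour giving the GC content of the transcript in percent and shape the subunit. Points of high GC content lie mostly below the grey line of equality and points of low GC content mostly above it; most points stay to the right of and above 0, the median being 1.03 without and 0.65 with the offset.

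Many members share their coding sequence with copies elsewhere in the genome, and the sources used here do not give how reads that fit both were counted. Outside the members, copies with at least 95% identity over at least 80% of a member's coding sequence numbered 544, of which 535 are pseudogenes. With other members counted as copies too, 81 of the 87 tested members had at least 1. Rpl21 had the most, 54. Counts in the copies outside the members were 12.9% and 12.2% of the members' own counts in Npas3-/- cultures and 13.9% and 14.5% in WT cultures. For 12 members the copies outweighed the gene itself, again with other members counted as copies. Rpl36a-ps1, Rpl10-ps3, Rpl9-ps6, Rps27rt and Rps12-ps3 are among the 12, each with its standard gene among its copies. Rps12 is among them too, with a mean of 201 CPM against 237 CPM in copies that include Rps12-ps3 at 200 CPM.

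Rpl34, another large-subunit protein, is shown as the example. The gene (chr3:130726831-130730398, GRCm38, minus strand) and its processed pseudogene Rpl34-ps1 (chr6:71124610-71124963, plus strand) differ at 2 of 351 coding bases, T132C and C318G, counted from the A of the start codon with the base of Rpl34 first. Coding bases 102 to 191 are shown from the GENCODE M21 transcripts, and the capital marks the only difference within them. A read within this stretch fits both places equally only if it does not cover that base. The read length is not given here.
Rpl34: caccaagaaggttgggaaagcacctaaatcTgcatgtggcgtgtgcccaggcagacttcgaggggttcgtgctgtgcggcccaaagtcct
Rpl34-ps1: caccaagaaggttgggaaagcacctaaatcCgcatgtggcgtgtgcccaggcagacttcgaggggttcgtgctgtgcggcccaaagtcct
The Rpl34 gene had 5.36 and 16.6 CPM in Npas3-/- cultures, against 5.48 and 79.6 CPM in WT cultures. Only the second WT library was high, and the log2 fold change of -1.95 ± 1.20 (SE) had an edgeR adjusted p of 0.251. The copy Rpl34-ps1 had 371 and 442 CPM in Npas3-/- cultures, against 238 and 94.4 CPM in WT cultures. Gene and copies summed had 418 and 579 CPM in Npas3-/- cultures, against 258 and 178 CPM in WT cultures. The groups then did not overlap, and the log2 fold change was 1.19 ± 0.29 (SE) with an edgeR adjusted p of 0.0324.

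Rpl7a had 137 and 551 CPM in Npas3-/- cultures, against 201 and 69.1 CPM in WT cultures, which overlapped, and a log2 fold change of 1.35 ± 0.78 (SE). With its copies it had 717 and 907 CPM in Npas3-/- cultures, against 494 and 343 CPM in WT cultures, without overlap (log2 fold change 0.96 ± 0.27 SE, edgeR adjusted p = 0.0465). Rpl30 had a log2 fold change of -0.59 for the gene and 0.49 for the sum (edgeR adjusted p = 0.391 and 0.137). Rpl21 stood at -0.75 for the gene, without a call (edgeR adjusted p = 0.0515), and was lower for the sum, at -0.92 (edgeR adjusted p = 0.03). With every member summed with its copies, 82 families were tested; 47 were higher and 4 lower, with a median log2 fold change of 1.07, where 12.1% of all tested rows were higher and 21.8% lower. The 4 were Rpl7, Rpl21, Rpl22l1 and Rpl26. With the offset as well, 25 were higher and 2 lower, against 5.7% and 2.99% of all rows.

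**Figure D4:**
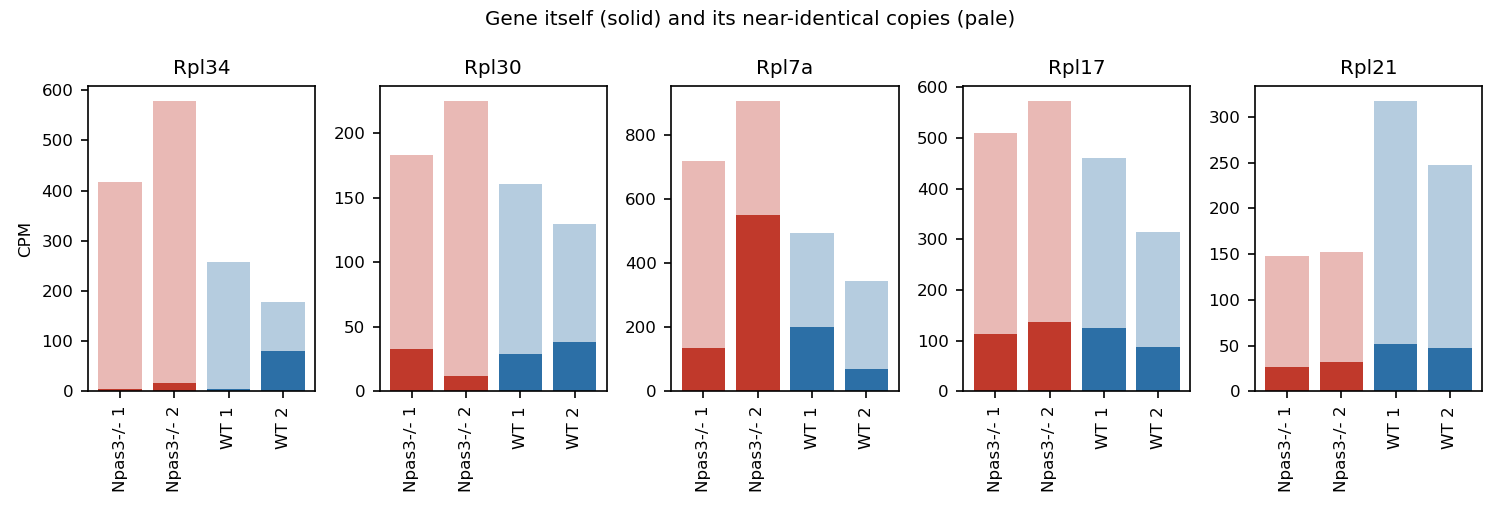
CPM of Rpl34, Rpl30, Rpl7a, Rpl17 and Rpl21 in each library, with the gene itself as the solid part of the bar and its near-identical copies as the pale part on top; red bars are Npas3-/- and blue bars WT libraries, and each panel has its own axis from 0. The solid parts of Rpl34 and Rpl7a are uneven within a genotype, while the full bars of Rpl34, Rpl30, Rpl7a and Rpl17 are higher in both Npas3-/- libraries and those of Rpl21 higher in both WT libraries.

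Among the paralogues, coding copies and Rps19bp1, 10 of 15 were tested, 5 were higher and 1 was lower, beside 11.6% and 21.5% of all tested genes. Rps19bp1, which is no ribosomal protein, is among those higher (1.43, edgeR adjusted p = 0.0268). With the offset 4 were higher and 0 lower, beside 5.71% and 3.08% of all tested genes. Rpl22l1, which can replace Rpl22 in the ribosome, had 5.20 and 7.41 CPM in Npas3-/- cultures, against 32.4 and 24.8 CPM in WT cultures. Its Npas3-/- values were both below its WT values, with a log2 fold change of -2.18 ± 0.32 (SE) and an edgeR adjusted p of 0.0139. Rpl22 itself had 399 and 544 CPM in Npas3-/- cultures, against 220.5 and 217 CPM in WT cultures, the reverse order (log2 fold change 1.11 ± 0.23 SE, edgeR adjusted p = 0.0248). Per length of transcript, Rpl22l1 came to 1.12% and 1.17% of the Rpl22 level in Npas3-/- cultures, against 12.6% and 9.80% in WT cultures. Rpl22l1 has 40.6% GC, and with the offset its log2 fold change was -0.75 (edgeR adjusted p = 0.286), whereas that of Rpl22 was 1.22 (edgeR adjusted p = 0.0296).

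Other pairs had other orders. Rpl7l1, a nucleolar relative of Rpl7, stood at 41.3% and 41.5% of the Rpl7 level per length in Npas3-/- cultures, against 14.6% and 11.8% in WT cultures. Its log2 fold change was 0.89 ± 0.20 (SE) (edgeR adjusted p = 0.0268) beside -0.76 for Rpl7. Rpl36al stood at 24.7% and 37.3% of Rpl36a in Npas3-/- cultures, against 60.7% and 75.1% in WT cultures, with a log2 fold change of -0.05 ± 0.22 (SE) and no call (edgeR adjusted p = 0.864). Rps27l, a p53 target in human cells, stood at 62.2% and 95.1% of Rps27 in Npas3-/- cultures and 96.4% and 53.7% in WT cultures, so the genotypes overlapped in that ratio. Rps27l rose by 0.92 (edgeR adjusted p = 0.0425) and Rps27 by 0.83 (0.0471 by the same test). With the offset Rps27l stood at 2.07 and Rps27 at -0.02 (edgeR adjusted p = 0.0274 and 0.976), and Rps27 summed with its copies was not called, at 0.76 (edgeR adjusted p = 0.0587). Rps27rt, Rpl10-ps3 and Rps12-ps3 have coding sequences identical to those of Rps27, Rpl10 and Rps12, and Rpl9-ps6 one that is nearly so, so their counts cannot be assigned with certainty to either gene. Rps27rt overlapped between genotypes (126 and 52.5 CPM in Npas3-/- and 94.9 and 30.6 CPM in WT), and Rpl9-ps6 had a log2 fold change of 1.13 ± 0.21 (SE) with an edgeR adjusted p of 0.0193. The 5 members that were not tested, Rpl10l, Rpl36-ps4, Rpl39l, Rpl3l and Rpl9-ps1, had at most 0.124 CPM in any library, and the first 3 had 0 counts in all 4.

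Pyrimidine runs of the TOP kind, and a further run of letters, were counted in the RefSeq promoter table, which covers 250 bases before to 50 after each annotated start and held 66 of the 92 members. The letters CTTTCC on the gene's strand within 50 bases of the start occurred in 31.8% of the 66 members and in 5.43% of 27025 genes. CTCTTTC, whose match can overlap one of CTTTCC, occurred in 18.2% of members and 1.62% of all genes in the same window. CCGGAAG, on either strand over the whole table window, occurred in 39.4% of members and 9.93% of all genes. CTTTCC was found in 29.7% of the 37 matched members called higher and in 34.6% of the 26 other tested ones. The following 30-base windows (GRCm38.p6) show such letters at or after the start in members with log2 fold changes between 1.84 and 0.45, with the annotated start as base 16 and the matched letters in capitals.
Rpl13a, chr7:45128731-45128760 (minus strand): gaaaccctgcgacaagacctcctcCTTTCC
Rpl18, chr7:45718056-45718085 (plus strand): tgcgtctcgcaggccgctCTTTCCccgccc
Rps10, chr17:27635230-27635259 (minus strand): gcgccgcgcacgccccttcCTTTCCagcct
Rps27, chr3:90213634-90213663 (minus strand): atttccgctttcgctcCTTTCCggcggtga
Rpl38, chr11:114668565-114668594 (plus strand): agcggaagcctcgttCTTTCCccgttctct
Rps27rt, chr9:114982725-114982754 (minus strand): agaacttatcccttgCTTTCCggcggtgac
Rps26, chr10:128626492-128626521 (minus strand): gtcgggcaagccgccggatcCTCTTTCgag
The first 4 were called higher, with log2 fold changes of 1.84, 1.55, 1.32 and 0.83, and the other 3, at 0.65, 0.51 and 0.45, were not called. The windows are a selection: Rpl35a (1.45), Rpl15 (1.09) and Rpl28 (0.99), all called higher, also had such letters after the start and are not shown. The members called lower are not among those shown. A match is a run of letters in the annotated window and not a measured start.

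Genes outside the ribosome that serve the same process gave other counts, to be read beside the 11.6% of all tested genes called higher and 21.5% called lower, or 5.71% and 3.08% with the offset. Fau and Rack1, which also encode ribosomal or ribosome-bound proteins but carry other symbols, were higher. Fau, which encodes a ubiquitin-like fusion with the small-subunit protein S30, had 404 and 650.2 CPM in Npas3-/- cultures, against 238 and 171 CPM in WT cultures (log2 fold change 1.37 ± 0.32 SE, edgeR adjusted p = 0.0305). The scaffold Rack1 had a log2 fold change of 1.24 (edgeR adjusted p = 0.0411). With the offset they stood at 0.26 and 0.97, and neither was called (edgeR adjusted p = 0.313 and 0.0842).

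Ribosome assembly factors, which build the subunits in the nucleolus, were called lower more often than higher, as were all tested genes. Of 76 tested, 10 were higher (13.2%) and 29 lower (38.2%), with a median log2 fold change of -0.25. Utp20, a factor of the small-subunit precursor, had 15.7 and 12.6 CPM in Npas3-/- cultures, against 72.0 and 83.1 CPM in WT cultures, with both Npas3-/- values below both WT values (log2 fold change -2.45 ± 0.24 SE, edgeR adjusted p = 0.013). Ddx52 (-2.95) and Wdr43 (-2.87), a helicase and a further small-subunit factor, were lower too, with edgeR adjusted p-values of 0.013 and 0.013. These factors had a median GC content of 48.1% and a median transcript length of 2638.5 bases. With the offset 5 were higher (6.58%) and 4 lower (5.26%), with a median of 0.07, and Utp20, Ddx52 and Wdr43 stood at -0.90, -1.37 and -1.33 (edgeR adjusted p = 0.0352, 0.026 and 0.026).

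Of 43 initiation factors 11 were higher (25.6%) and 17 lower (39.5%), and their log2 fold changes had a median of -0.22. With the offset 3 were higher (6.98%, near the share of all genes) and 4 lower (9.30%), with a median of 0.29. Eif3e, a subunit of the eIF3 complex, had 14.2 and 12.6 CPM in Npas3-/- cultures, against 92.1 and 128 CPM in WT cultures (log2 fold change -3.04 ± 0.26 SE, edgeR adjusted p = 0.013). Eif2s1 and Eif2s3x, subunits of the factor that brings the initiator tRNA, stood at -2.33 and -2.17 (edgeR adjusted p = 0.013 and 0.013). With the offset Eif3e was still lower (-1.31, edgeR adjusted p = 0.0269), whereas Eif2s1 stood at -0.33 and Eif2s3x at -0.59, without a call.

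Of 17 elongation and release factors 6 were higher (35.3%) and 5 lower (29.4%), with a median of 0.42. With the offset 1 was higher (5.88%) and 0 lower (median 0.32). The unadjusted edgeR p was then below 0.05 for 10 of the 17 and for 5774 of all 18838 tested genes. The release factor genes Etf1 (-2.22) and Gspt1 (-1.83) and Eef1e1 (-1.99), which encodes an aminoacyl-tRNA synthetase partner, were lower, with an edgeR adjusted p of 0.013, 0.013 and 0.013. The translocation factor Eef2, itself a TOP mRNA and named after its values were seen, had 5059.6 and 5681 CPM in Npas3-/- cultures, against 3088 and 2253 CPM in WT cultures, without overlap (log2 fold change 1.01 ± 0.27 SE, edgeR adjusted p = 0.0395), and stood at 0.48 with the offset (edgeR adjusted p = 0.125).

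Of 22 other genes with TOP mRNAs, a list that shares Fau, Rack1, Eif3e and others with the lists above, 8 were higher (36.4%) and 6 lower (27.3%), with a median of 0.51, and with the offset 2 were higher and 2 lower (9.09% each, median 0.45). Naca, a subunit of the nascent polypeptide complex at the tunnel exit, had 57.1 and 56.9 CPM in Npas3-/- cultures, against 183 and 197 CPM in WT cultures, with both Npas3-/- values lower (log2 fold change -1.73 ± 0.19 SE, edgeR adjusted p = 0.013), and stood at -1.32 with the offset (edgeR adjusted p = 0.0246). Nap1l1, a histone chaperone, stood at -1.48 (edgeR adjusted p = 0.0135) without the offset and at 0.73 with it (edgeR adjusted p = 0.14). Genes with TOP mRNAs outside the members were thus called in both directions.

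Of 21 genes of mTORC1 signalling and TOP control 2 were higher (9.52%) and 5 lower (23.8%), shares near those of all tested genes (median -0.41). With the offset edgeR called 0 of them in either direction. Its unadjusted p was then below 0.05 for 8 of the 21 and for 5774 of all 18838 tested genes. Rheb, the GTPase that activates mTORC1, had 36.9 and 47.0 CPM in Npas3-/- cultures, against 91.8 and 95.1 CPM in WT cultures, without overlap (log2 fold change -1.16 ± 0.21 SE, edgeR adjusted p = 0.0192). Rps6ka1, which encodes an S6 kinase of the RSK family, had 231 and 223 CPM in Npas3-/- cultures, against 116 and 90.0 CPM in WT cultures (log2 fold change 1.14 ± 0.21 SE, edgeR adjusted p = 0.0197). Rps6kb1, the S6 kinase downstream of mTORC1, stood at -2.46 (edgeR adjusted p = 0.0228) without the offset and at 0.21 with it (edgeR adjusted p = 0.527).

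**Figure D5:**
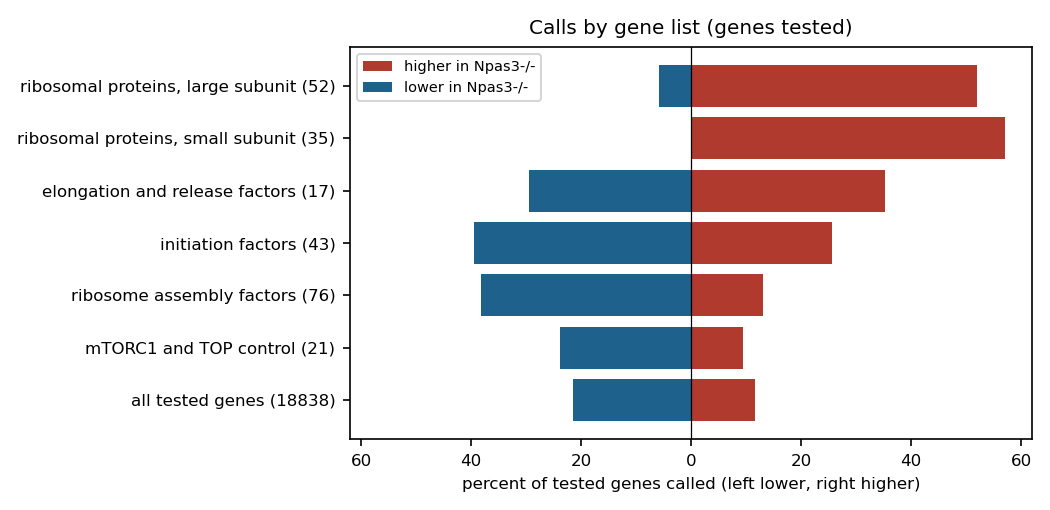
Percent of tested genes called higher (right, red) and lower (left, blue) in Npas3-/- cultures at an edgeR adjusted p below 0.05 without the offset, with the number tested in brackets. The bars of both ribosomal protein groups lie almost wholly to the right, those of assembly factors, initiation factors, mTORC1 genes and all tested genes reach further to the left than to the right, and elongation and release factors reach to both sides.

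These calls rest on few libraries. Without the second Npas3-/- sample edgeR called 0 members and 0 of all 20315 genes tested, 41 members having an unadjusted p below 0.05, and without the first it called 13 members higher and 1 lower, against 2.5% and 9.38% of all genes. Without the second WT sample 14 members were higher and 1 lower (2.47% and 12.8% of all genes), and without the first 52 and 3 (9.93% and 19% of all genes). The median log2 fold change of the members lay between 0.81 and 1.27 over these 4 fits. With the GC and length offset, edgeR made no call among all genes when 1 or the other Npas3-/- sample was left out. The members' median log2 fold change was 0.67 without the first and 0.70 without the second, beside 0.04 and 0.08 over all genes. With the offset 44 members were higher and 2 lower without the first WT sample (7.56% and 2.94% of all genes), and 12 were higher and 0 lower without the second (2.3% and 1.15% of all genes). The single remaining sample of a genotype is taken there to vary like the other genotype's pair. An exact permutation test of 2 against 2 cannot give a two-sided p below 0.333, so none is given.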

How the data were processed

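RNA-seq gene counts of 2 Npas3-/- and 2 WT astrocyte samples were used. The authors deposited 1 table of raw counts per gene with Ensembl identifiers; the submitters' processing notes name mm10, featureCounts, HISAT2 2.1.0 and Trimmomatic 0.3.8. The sources used here give neither the strand setting nor the annotation release nor how reads that fit several places were treated. This leaves uncertain the counts of genes with near-identical copies and of the 39 members whose exons overlap another gene. Sample columns were identified by name.

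Symbols, lengths, GC content and coding sequences came from GENCODE M21 (GRCm38), in which 53274 of 53379 identifiers were found by the identifier without its version. The longest coding transcript gave GC content and length for the offset, and the principal transcript gave CPM per kb. Counts were tested with edgeR 4.0.16 (R 4.3.3): quasi-likelihood test, TMM scaling, filterByExpr with a minimum count of 10, genotype as the only term, 2 residual degrees of freedom, Benjamini-Hochberg adjustment over all tested genes and a threshold of 0.05. The SE is the log2 fold change over the square root of F. CPM use TMM-scaled library sizes. The offset came from natural splines in GC content and in log2 length (6 degrees of freedom per spline), fitted within each library to log2 CPM centred by gene. Near-identical copies were found with blastn 2.17.0, and their counts were added to those of the member in a further fit, added after the data were seen. The test was also run on simulated counts. That outcome is not given here, and no result rests on it.

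Other scalings and filters, DESeq2 1.42.0, limma-voom 3.58.1, the replicate number as a block and leaving out each sample were tried as alternatives. The members, lists and tests were chosen with earlier results of these data known. Genes named were, in each subunit, the 5 with the highest level per kb and the 4 with the largest and 4 with the smallest log2 fold change, the tested paralogues, the 3 genes with the smallest p in each other list and Npas3; members described by their place in the ribosome, and others where said, were added after their values were seen. Some genes are not reported here by name. Intervals cover counting error only.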

Additional observations from a re-analysis of the deposited data

How the results depend on the processing

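The members' median log2 fold change was above 0 in every alternative, while the number of calls moved widely. The main counts were 47 members higher and 3 lower (27 and 3 in the large subunit, 20 and 0 in the small subunit) and 6232 genes in all. Scaling by total counts gave 28 higher, 17 in the large and 11 in the small subunit, beside 5.36% of all tested genes. Without a filter on low counts 22 were higher and 1 lower (14 and 1 large, 8 small) and 3997 genes were called. With the replicate block 10 were higher and 1 lower (7 and 1 large, 3 small). That fit called 2560 genes, 1.67% of all tested genes higher and 11.9% lower. With the block and the GC and length offset 25 were higher and 1 lower (16 and 1 large, 9 small), with a median of 0.65. There 1139 genes were called, 4.10% of all tested genes higher and 1.95% lower. The offset alone gave 26 and 1 (1 large-subunit gene lower, 7 small-subunit genes higher), a median of 0.65 and 1656 genes. At an adjusted p below 0.01 edgeR called 0 members and 0 genes. Its unadjusted p was below 0.05 for 64 of 87 tested members and for 9024 of all 18838 tested genes. At an adjusted p below 0.05 DESeq2 called 57 members higher and 4 lower, beside 18.7% and 25.7% of all tested genes. Calls by limma-voom were 48 and 4, beside 12.3% and 19.8%.

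Added after the data were seen, the offset from principal transcripts gave 24 higher (16 large, 8 small), a median of 0.56 and 1610 genes. Of all tested genes 5.39% were then higher and 3.16% lower. Members summed with their copies and with the offset gave 25 higher (7 small), a median of 0.65 and 1611 genes. The labels give no shared source for same-numbered samples, whose deviations from the genotype means had r = -0.29 over 14365 genes. A crossed replicate block gave 61 higher and 4 lower, beside 17.7% and 23.0% of all tested genes. With the offset it gave 36 higher and 2 lower (13 small-subunit genes higher), beside 8.03% and 4.18%. The median was then 0.65, and 2300 genes were called.

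Leaving out each sample in turn gave 0 to 52 members higher and 0 to 3 lower (0 to 31 and 0 to 3 large, 0 to 21 small), 0 to 5832 genes and medians of 0.81 to 1.27. With the offset it gave 0 to 44 higher and 0 to 2 lower (0 to 28 and 0 to 2 large, 0 to 16 small), 0 to 2121 genes and medians of 0.47 to 0.93.

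The following log2 fold changes changed sign, and the cause was not tested. Rpl34 stood at 1.19 (summed with copies), 0.38 (summed with copies, with the offset). Rpl7 stood at 0.061 (principal-transcript offset), 0.031 (summed with copies, with the offset). Rps3a1 stood at 0.023 (offset), 0.023 (offset and block), 0.089 (principal-transcript offset), 0.023 (offset and crossed block). Rps15a stood at 1.45 (offset), 1.44 (offset and block), 1.56 (principal-transcript offset), 1.44 (offset and crossed block), 1.47 (summed with copies, with the offset). Rps27a stood at -0.12 (total counts), -0.0089 (offset), -0.0054 (offset and block), -0.0054 (offset and crossed block). Nap1l1 stood at 0.73 (offset), 0.77 (offset and block), 0.77 (offset and crossed block), 0.72 (summed with copies, with the offset). Rps6kb1 stood at 0.21 (offset), 0.21 (offset and block), 0.26 (principal-transcript offset), 0.21 (offset and crossed block), 0.20 (summed with copies, with the offset). With 1 sample left out, with or without the offset, the ranges were Rplp1 -0.011 to 1.91, Rpl22l1 -2.45 to 0.060, Rpl34 -3.82 to 0.98, Rpl7 -0.81 to 0.078, Rps2 -0.081 to 1.76, Rps3a1 -0.30 to 0.13, Rps15a -0.29 to 1.74, Rps27a -0.20 to 0.34, Rpl36al -0.32 to 0.12, Rps27rt -0.26 to 2.31, Eif2s1 -2.40 to 0.21, Nap1l1 -1.66 to 1.17 and Rps6kb1 -2.99 to 0.24.

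For the 48 genes named by rule, over 22 alternatives, 642 values kept direction and side of the threshold, 332 were no longer called, 21 were newly called and 57 changed sign. The 5 members with at most 0.124 CPM had too few counts to be tested, and all calls are limited by the 4 libraries.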

Other observations

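The proteins of the mitochondrial ribosome come from a separate nuclear gene set. Of 78 tested, 29 were higher (37.2%) and 8 lower (10.3%) in Npas3-/- cultures by edgeR's quasi-likelihood test at an adjusted p below 0.05, beside 11.6% and 21.5% of all tested genes, their median log2 fold change being 0.69. With the GC and length offset 21 were higher (26.9%) and 3 lower (3.85%), beside 5.71% and 3.08% of all tested genes, with a median of 0.39.

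Small nucleolar RNAs lie within 30 of the members, 59 in all. Across the 87 tested members the number of near-identical copies and the log2 fold change had Spearman's rho = -0.15, a description over genes of the same 4 libraries.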
